A study of Mus musculus with 2 samples.

Results

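The Notch receptor, ligand and Fringe genes examined here were the receptors Notch1, Notch2 and Notch3, the Delta ligands Dll1, Dll3 and Dll4, the Jagged ligands Jag1 and Jag2, and the Fringe glycosyltransferases Lfng and Mfng. These 10 genes, of 43346 in the gene tables, were found by matching each gene identifier, with its version removed, to the mouse GENCODE annotation. The matching uses no measured value, but the genes were chosen with earlier results of these data known. All 10 were found in both tables. Notch4 and Rfng, the remaining mouse receptor and Fringe genes, are given beside them as pathway genes.

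Notch signalling passes between touching cells. A Delta or Jagged ligand on a cell binds a Notch receptor on its neighbour, the receptor is cut first by an ADAM protease and then by gamma-secretase, and the freed intracellular domain enters the nucleus and joins Rbpj at target genes such as Hes5. In the embryonic neural tube the pathway is known for lateral inhibition, in which cells starting to become neurons raise Delta ligands and keep their neighbours as progenitors. Fringe enzymes extend O-fucose sugars on the receptor's EGF repeats and so change how it responds to Delta and to Jagged ligands.

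The libraries were total RNA-seq of midbrain dissected from B6NCrl mouse embryos of both sexes at embryonic day 11.5, with no treatment, mutant or other tissue to compare. Replicate 2 came from a pool of 88 embryos and replicate 1 from a pool of 109 embryos, and each pool gave 1 library. Its input was 10 ng of RNA above 200 nt in length, and spike-in RNAs were added. A pool averages over embryos, so the spread between individual embryos was not measured. Genes drew 45975100 expected counts in replicate 2 and 38884247 in replicate 1, an expected count being an estimated number of reads that need not be whole. Levels are in TPM, the share of all transcripts after correction for transcript length, so genes can be set side by side. Over 14043 genes the common biological coefficient of variation between the pools was 7.82% (edgeR), and 13895 genes, or 32.1%, reached 1 TPM in both libraries, the level called detected here. All 10 Notch genes were detected.

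Marker genes of neural and other cell types were read to describe the tissue. These lists mark cell types and not brain regions, so they do not test the midbrain label. All 8 progenitor markers were detected, led by Vim, Fabp7 and Sox9, with summed levels of 2260 TPM in replicate 2 and 2262 TPM in replicate 1. All 8 neuron markers were detected as well, led by Tubb3, Stmn2 and Gap43, at 1593 TPM in replicate 2 and 1612 TPM in replicate 1. Of 8 neurogenic markers, genes of cells leaving the progenitor state and led by Hes6, Gadd45g and Btg2, 7 were detected, at 737 TPM in replicate 2 and 703 TPM in replicate 1, and the exception was Atoh1 at a mean of 0.925 TPM. The tissue also held other cells. All 10 endothelial markers were detected (180 TPM in replicate 2, 174 TPM in replicate 1), as were 6 of 8 mural cell markers (53.6 TPM in replicate 2, 54.8 TPM in replicate 1), all 8 mesenchymal markers, led by Col3a1, Lum and Col1a2 (700 TPM in replicate 2, 736 TPM in replicate 1) and all 8 erythroid and macrophage markers, led by Hbb-y, Hba-x and Alas2 (10907 TPM in replicate 2, 10884 TPM in replicate 1). No marker was at 0 counts. The level of each Notch gene is therefore a sum over all these cells, and more cells of a type and more RNA per cell cannot be told apart.

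The sequences that follow are the promoter windows of these genes that hold the letters CAGCTG, and the other windows are not printed. No level or ratio in this report was computed from them. Lfng, Jag1, Dll3 and Dll1 each have a RefSeq promoter window (300 bases around the annotated start, build GRCm38.p6, which is mm10) that holds an E-box of the letters CAGCTG, the kind bound by proneural transcription factors, and the Lfng window also holds GTGGGAA, the letters of a binding motif of the Notch effector Rbpj. Capitals mark these motifs, and every sequence is written 5′ to 3′ on the strand of its gene.
Lfng, chr5:140607091-140607390, plus strand: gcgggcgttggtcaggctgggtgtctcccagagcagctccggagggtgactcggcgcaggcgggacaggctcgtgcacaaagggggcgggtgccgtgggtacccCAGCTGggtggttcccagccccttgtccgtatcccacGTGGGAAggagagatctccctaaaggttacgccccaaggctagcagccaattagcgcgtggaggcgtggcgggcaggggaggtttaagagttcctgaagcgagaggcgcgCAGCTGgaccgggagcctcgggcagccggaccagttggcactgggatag
Jag1, chr2:137116471-137116770, minus strand: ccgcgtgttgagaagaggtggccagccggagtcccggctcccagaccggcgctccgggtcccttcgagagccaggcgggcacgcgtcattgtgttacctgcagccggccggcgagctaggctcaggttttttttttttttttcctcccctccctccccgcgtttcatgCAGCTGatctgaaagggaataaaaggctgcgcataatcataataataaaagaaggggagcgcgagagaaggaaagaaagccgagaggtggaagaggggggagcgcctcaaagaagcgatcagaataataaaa
Dll3, chr7:28301736-28302035, minus strand: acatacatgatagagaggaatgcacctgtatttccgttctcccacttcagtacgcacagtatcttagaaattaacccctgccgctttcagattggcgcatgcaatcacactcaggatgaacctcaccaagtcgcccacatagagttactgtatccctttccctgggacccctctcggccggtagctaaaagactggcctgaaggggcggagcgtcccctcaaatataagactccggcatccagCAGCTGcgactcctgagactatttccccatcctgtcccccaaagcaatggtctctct
Dll1, the upstream one of its 2 windows, chr17:15376883-15377182, minus strand: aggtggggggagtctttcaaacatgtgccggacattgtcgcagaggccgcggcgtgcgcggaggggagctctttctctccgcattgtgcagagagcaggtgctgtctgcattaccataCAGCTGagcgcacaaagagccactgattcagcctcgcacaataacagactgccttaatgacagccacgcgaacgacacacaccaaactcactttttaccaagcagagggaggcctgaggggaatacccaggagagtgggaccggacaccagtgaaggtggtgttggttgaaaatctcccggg

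Counted from the RefSeq start site, with no base 0, the E-box began at -146 and again at 2 in Lfng, at -82 in Jag1, at -7 in Dll3 and at -132 in the upstream Dll1 window. The GTGGGAA of Lfng began at -109. Of the 10 genes, 9 had a window, and Dll1 had 2, which gave 10 windows of 300 bases. On both strands, CAGCTG was in 4 of the 10 windows and in 16.3% of all 32841 windows of the same length, GTGGGAA was in 1 of the 10 and in 6.38% of all, and CACNAG, the N-box recognised by Hes repressors, was in 6 of the 10 and in 42.5% of all. In these windows no match overlapped a match of another motif, and a match is a description of the letters and not a binding site. The Dll3 start site lay 453 bases from the start of the transcript that led its level, that of the upstream Dll1 window 956 bases, and that of Lfng 21 bases. The start site of the other Dll1 window was closer, at 153 bases, and that window held no match to any of these motifs.

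The last intron of Dll1 is shown because a transcript that keeps it carried part of the gene's level, as described below. It is 98 bases long (chr17:15368036-15368133, mm10), lies on the minus strand before the last exon of the coding transcript Dll1-201, which has 11 exons, and starts with GT and ends with AG. Capitals mark the intron, and small letters the 30 coding bases before and the 3 after it.
Dll1 last intron, chr17:15368033-15368163, minus strand: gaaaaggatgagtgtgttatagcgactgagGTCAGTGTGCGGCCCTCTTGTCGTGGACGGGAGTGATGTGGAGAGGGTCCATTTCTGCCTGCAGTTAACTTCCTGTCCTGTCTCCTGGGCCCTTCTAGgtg

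Among the receptors, Notch1 stood highest, and Notch3 and Notch2 were close together below it. Notch1 (ENSMUSG00000026923.11, chr2:26457903-26516663), which maintains neural progenitors in the embryo, had 36.5 TPM on 10067 counts in replicate 2 and 31.1 TPM on 7541 counts in replicate 1, a mean of 33.8 ± 3.78 TPM (SD, n = 2, as for all means ± SD). Notch3 (ENSMUSG00000038146.7, chr17:32120820-32166852), a receptor also known from the mural cells of vessels, had 15.8 TPM on 4017 counts in replicate 2 and 14.7 TPM on 3119 counts in replicate 1. Notch2 (ENSMUSG00000027878.10, chr3:98013527-98150361) had 13.4 TPM on 4470 counts in replicate 2 and 12.7 TPM on 3534 counts in replicate 1. The order Notch1, Notch3, Notch2 was the same in both libraries. The summed level of these receptors, without Notch4, was 65.7 TPM in replicate 2 and 58.5 TPM in replicate 1. Notch1 made up 54.4 ± 1.63% of it, Notch3 24.6 ± 0.727% and Notch2 21.1 ± 0.907%.

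Each level comes with an interval that the authors deposited, which describes the uncertainty of counting and assigning reads within a library and not the spread between pools. The interval of Notch2 was 12.8 to 13.6 TPM in replicate 2 and 12.0 to 12.8 TPM in replicate 1, and that of Notch3 was 15.02 to 15.98 TPM in replicate 2 and 13.9 to 14.9 TPM in replicate 1. Within each library the intervals of these receptors did not overlap, although Notch2 was as close to Notch3 as 0.858 of its level, with a mean log2 ratio of -0.22 ± 0.02. For Notch1 the interval was 36.1 to 42.4 TPM in replicate 2 and 31.7 to 37.4 TPM in replicate 1, and the printed level of replicate 1 lies below it, because the interval belongs to the posterior mean of 39.2 TPM in replicate 2 and 34.3 TPM in replicate 1. The mural cell list that shares the tissue with Notch3 had Acta2 at 27.9 ± 0.304 TPM, Pdgfrb at 12.9 ± 0.940 TPM and Kcnj8 at 6.21 ± 0.686 TPM as its highest members, with Cspg4 at 0.610 and Des at 0.460 TPM. The part of such cells in the Notch3 level was not tested.

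The Delta ligands held the highest and nearly the lowest of the 10 levels. Dll3 (ENSMUSG00000003436.11, chr7:28293553-28302238), a divergent Delta ligand that stays largely inside the cell and is known to inhibit signalling in the cell that makes it, was the highest of all 10 genes, with 69.0 TPM on 5261 counts in replicate 2 and 68.2 TPM on 4292 counts in replicate 1. Dll1 (ENSMUSG00000014773.9, chr17:15367354-15376872), the activating ligand of nascent neurons, had 52.5 TPM on 4574 counts in replicate 2 and 46.4 TPM on 3136 counts in replicate 1. Dll4 (ENSMUSG00000027314.6, chr2:119325784-119335962), known best from the endothelium of growing vessels, had 3.11 TPM on 363 counts in replicate 2 and 2.38 TPM on 232 counts in replicate 1. Dll3 and Dll1 were thus far above Dll4 in both libraries, and Dll1 was at 0.719 of Dll3 (mean log2 ratio -0.48 ± 0.11).

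Intervals within each library separated all of the Delta ligands. Dll3 spanned 65.8 to 70.4 TPM in replicate 2 and 64.4 to 69.8 TPM in replicate 1, and Dll1 49.6 to 54.7 TPM in replicate 2 and 43.1 to 48.8 TPM in replicate 1. The mean of Dll3 was 24.4-fold and that of Dll1 17.5-fold the level of Dll4. Beside Dll4, the endothelial list was led by Egfl7 (42.6 ± 3.41 TPM), Cldn5 (22.6 ± 1.12 TPM) and Esam (20.95 ± 2.53 TPM). The part of endothelial cells in the Dll4 level was not tested.

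Among the Jagged ligands Jag1 made up nearly the whole level. Jag1 (ENSMUSG00000027276.7, chr2:137081456-137116644) had 27.3 TPM on 4685 counts in replicate 2 and 27.1 TPM on 3886 counts in replicate 1. Jag2 (ENSMUSG00000002799.5, chr12:112907819-112929776) had 1.54 TPM on 195 counts in replicate 2 and 1.75 TPM on 185 counts in replicate 1, the lowest of the 10. Jag1 was 15.7-fold the level of Jag2 and made up 94.3 ± 0.515% of the Jagged sum, which was 28.8 TPM in each library.

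Set together, the ligands summed to 153 TPM in replicate 2 and 146 TPM in replicate 1, which was 2.34 times the receptor sum in replicate 2 and 2.49 times in replicate 1. The receptor sum leaves out Notch4, at 12.2 TPM in replicate 2 and 6.77 TPM in replicate 1, which would lower these ratios. Delta ligands made up 80.7 ± 0.702% of the ligand level. Dll3 alone was 45.9 ± 1.28% of it, Dll1 33.0 ± 1.71%, Jag1 18.2 ± 0.562%, Dll4 1.83 ± 0.278% and Jag2 1.10 ± 0.139%. These shares are of RNA and do not count ligand on the cell surface, and a large share of the ligand level was Dll3, whose known role differs from that of the activating ligands.

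Of the Fringe genes, Mfng (ENSMUSG00000018169.8, chr15:78755882-78773475) had 47.6 TPM on 2379 counts in replicate 2 and 43.7 TPM on 1831 counts in replicate 1. Lfng (ENSMUSG00000029570.1, chr5:140607320-140615545), known for its role in the segmentation clock and in neural progenitors, had 30.9 TPM on 2163 counts in replicate 2 and 26.4 TPM on 1542 counts in replicate 1. Lfng was at 0.628 of Mfng (mean log2 ratio -0.67 ± 0.07), and Mfng made up 61.5 ± 1.22% of their sum. Rfng, the remaining Fringe gene, was at 23.5 TPM in replicate 2 and 21.5 TPM in replicate 1.

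**Figure D1:**
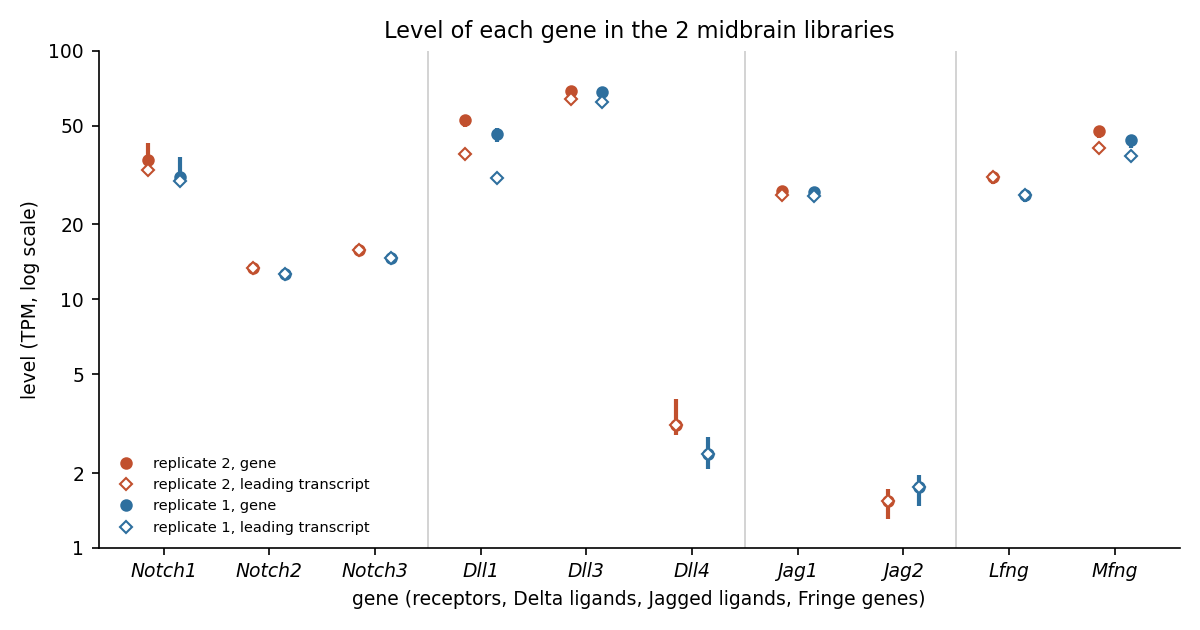
Levels of the 10 Notch genes in TPM on a log axis, by role, with replicate 2 and replicate 1 side by side; circles are gene levels, bars the deposited intervals and open diamonds the leading transcript alone. Dll3 is highest in both libraries, at 69.0 TPM in replicate 2 and 68.2 TPM in replicate 1, and Jag2 is lowest, at 1.54 TPM in replicate 2 and 1.75 TPM in replicate 1.

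Across all 10 genes the order by mean level was Dll3, Dll1, Mfng, Notch1, Lfng, Jag1, Notch3, Notch2, Dll4 and Jag2. Of the 9 pairs of neighbours in this order, 7 had separate intervals in replicate 2 and in replicate 1, with the same gene on top. The exceptions were Dll1 over Mfng, at 1.10-fold in replicate 2 and 1.06-fold in replicate 1, and Lfng over Jag1, at 1.13-fold in replicate 2 and 0.975-fold in replicate 1. In both exceptions the intervals were apart in replicate 2 and overlapped in replicate 1. Set among the 13895 detected genes, whose median was 16.4 TPM and whose quartiles were 5.38 and 45.3 TPM, 6 of the 10 lay above the median and 3, Dll3, Dll1 and Mfng, above the upper quartile. Dll3 exceeded 82.9% of detected genes and Notch1 68.2%, while Dll4 exceeded 13.6% and Jag2 5.74%.

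Between and within roles 14 pairs were compared, and all 14 had separate intervals in each library, with the same gene on top. Over all pairs of detected genes the share was 88.8%, so separation by itself was common and the size of each ratio carries the comparison. The Dll3 to Jag2 ratio was the largest of the 14 at 39.5-fold (mean log2 ratio 5.30 ± 0.14), followed by Dll1 to Jag2 at 28.4-fold. Dll3 to Jag1 was 2.52-fold (1.33 ± 0.00), and Dll1 to Jag1 was 1.81-fold (0.86 ± 0.12). Notch1 to Notch3 was 2.21-fold (1.14 ± 0.09), and Notch2 was at 0.389 of Notch1 (-1.36 ± 0.11). The least steady pair was the one of lowest counts, in which Jag2 was at 0.511 of Dll4 in replicate 2 and at 0.746 in replicate 1. Where a fold of 1.5 in both libraries was asked for in place of separated intervals, 11 of the 14 pairs passed, against 81.9% of all pairs, and the pairs Notch2 with Notch3, Dll1 with Dll3 and Jag2 with Dll4 did not.

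**Figure D2:**
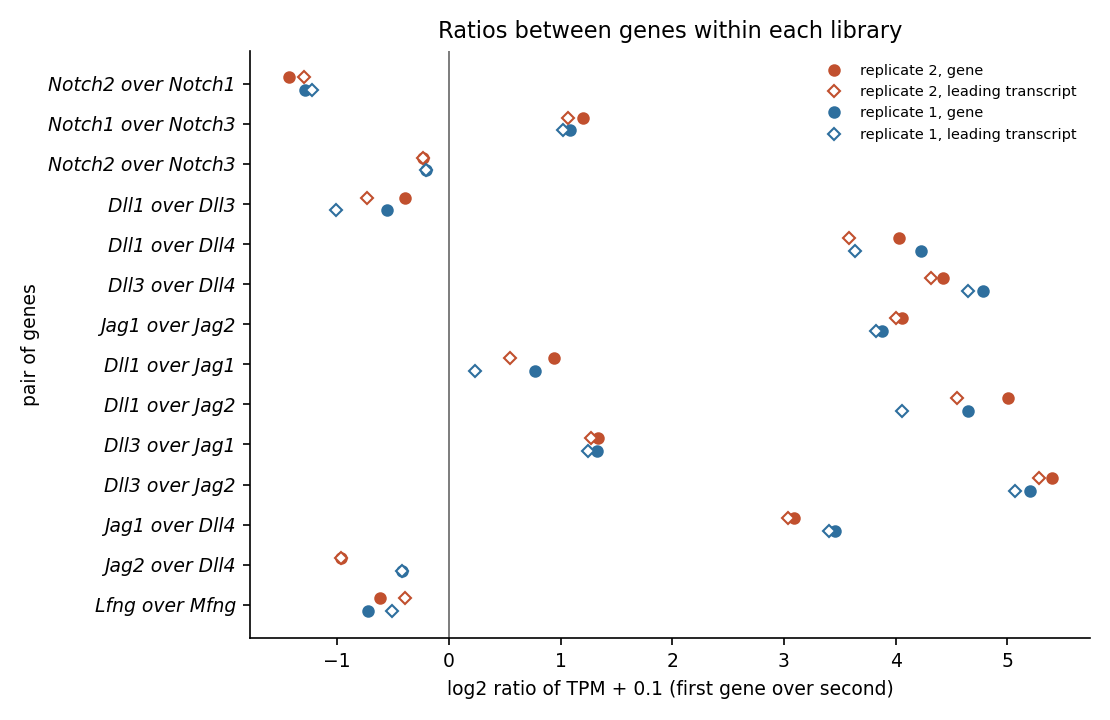
Log2 ratios of TPM + 0.1 for the 14 pairs of Notch genes, with filled points for gene levels and open diamonds for the leading transcripts, 1 of each per library. For gene levels, ratios run from -1.36 for Notch2 over Notch1 to 5.30 for Dll3 over Jag2 as means of both libraries, and no pair changes sign between the libraries.

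The transcript tables listed 32 transcripts of the 10 genes, and in all 10 the same protein-coding transcript led in both libraries. Lfng, Jag2, Notch2 and Notch3 had only 1 transcript listed, so for these genes a whole share in it was fixed in advance. Dll4, with 2 listed, also had its whole level in the leading one. By posterior mean, Dll4-201 held 89.7% in replicate 2 and 95.2% in replicate 1. Jag1-201 held 96.4% of Jag1 in each library, Notch1-201 90.8% of Notch1 in replicate 2 and 95.8% in replicate 1, Dll3-201 92.4% of Dll3 in replicate 2 and 90.9% in replicate 1, and Mfng-201 85.3% of Mfng in replicate 2 and 86.3% in replicate 1. By posterior mean, Notch1-201 held 82.9% of Notch1 in replicate 2 and 84.8% in replicate 1. Dll1 had the smallest leading share, with 73.1% in replicate 2 and 66.4% in replicate 1 for Dll1-201.

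The rest of Dll1 lay mostly in Dll1-204, the retained-intron transcript that keeps the last intron printed above. Dll1-204 is 751 bases long in 2 exons, and 68.0% of its bases are those of the last exon of Dll1-201, so most of its sequence is shared with the coding transcript. It was given 22.2% of the Dll1 level on 243 counts in replicate 2 and 25.8% on 209 counts in replicate 1. Of the reads this was 5.32% in replicate 2 and 6.66% in replicate 1, since a short transcript turns few reads into a high TPM. By reads, Dll1-201 held 93.6% of Dll1 in replicate 2 and 91.4% in replicate 1. The deposited values do not say how many of the Dll1-204 reads lay in the intron itself. A comparable gap was seen in Notch1, where the 406-base Notch1-202 was given 4.06% of the gene's level on 14.6 counts in replicate 2 and 0 counts in replicate 1, and in Mfng, where the 319-base Mfng-203 was given 9.24% on 31 counts in replicate 2 and 10.5% on 27 counts in replicate 1.

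**Figure D3:**
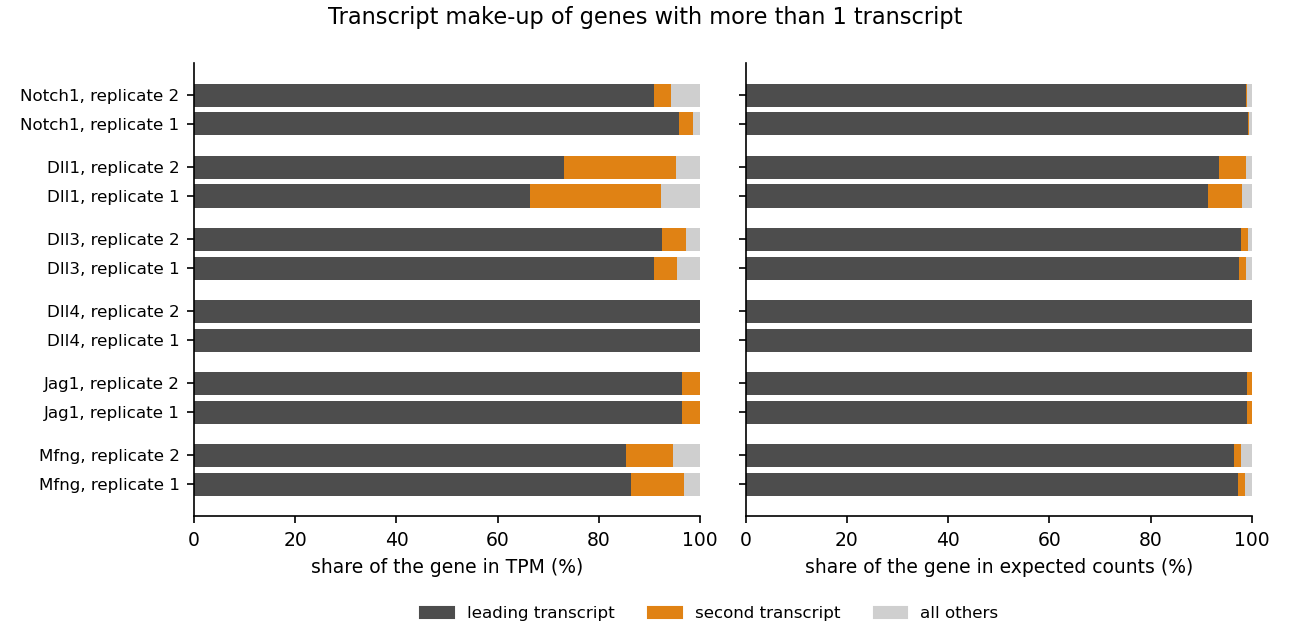
Share of each transcript in the level (left, percent of TPM) and in the reads (right, percent of expected counts) of the Notch genes with more than 1 annotated transcript, replicate 2 above replicate 1. Dll1-201 holds 73.1% of the Dll1 level in replicate 2 and 66.4% in replicate 1, but 93.6% of its reads in replicate 2 and 91.4% in replicate 1.

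Counting the leading transcript alone moved Dll1 below Mfng, an alternative chosen after seeing the data. Mfng-201 then had 40.6 TPM in replicate 2 and 37.7 TPM in replicate 1, and Dll1-201 had 38.4 TPM in replicate 2 and 30.8 TPM in replicate 1. Their intervals overlapped in replicate 2 and were apart in replicate 1, so the order of these genes is not settled by either measure. The fold of Dll1 over Dll3 was then 0.547 and that of Dll1 over Jag1 1.31, and all 14 pairs still had separated intervals in both libraries.

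The pools were then set against each other, replicate 2 against replicate 1, by an exact binomial test on counts with Benjamini-Hochberg adjustment over 17148 genes, which compares 2 libraries and not conditions. None of the 10 Notch genes reached an adjusted p under 0.05 with a difference of at least 2-fold, against 2.94% of all tested genes (1.38% higher in replicate 2), and at an unadjusted p under 0.05 with that fold the number was 0 as well. With no minimum fold, 7 of the 10 passed, all 7 higher in replicate 2, against 35.5% of tested genes (18.3% higher in replicate 2). The differences were small. The largest was Dll4, with a log2 ratio of 0.40 (363 counts in replicate 2, 232 in replicate 1; exact binomial test, adjusted p = 0.00446). Beside Dll4, 3 of the 10 endothelial markers passed at any fold, 2 of them higher and 1 lower in replicate 2. Dll1 had a log2 ratio of 0.30 (adjusted p = 3.75e-17, exact binomial test), Lfng 0.24 (6.13e-06) and Notch1 0.17 (5.53e-13).

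The remaining genes that passed were Mfng at 0.13 (adjusted p = 0.0140, exact binomial test), Notch3 at 0.12 (0.00324) and Notch2 at 0.09 (0.0182). Dll3, at 0.05 (adjusted p = 0.234, exact binomial test), Jag1 at 0.02 (0.643) and Jag2 at -0.17 (0.403) did not pass. This test holds only the error of counting reads. An edgeR exact test with an assumed coefficient of variation of 0.1 passed none of the 10 at any fold and none at an unadjusted p under 0.05, against 0.962% of tested genes by adjusted p. With library sizes from the spike-in totals, 9 of the 10 passed the binomial test at any fold, against 38.6% of tested genes. Deposited intervals did not overlap between the libraries for 4 of the 10, Dll1, Dll4, Lfng and Notch3, all higher in replicate 2, against 22.4% of detected genes (11.1% higher in replicate 2).

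The median log2 ratio of the 10 was 0.12, beside 0.01 over detected genes. GC content moved with these ratios. The longest transcripts of the 10 genes had 48.8% to 61.9% GC with a median of 57.6%, 9 of the 10 lay above the median of 49.6% of detected genes, and over 5 equal groups of detected genes by rising GC the median log2 ratio was -0.08, -0.05, -0.00, 0.07 and 0.13. With a trend on GC and length removed, which was chosen after seeing the data, the median of the 10 was 0.03 and 4 of them passed at any fold, against 27.5% of tested genes. Those were Dll1 at 0.22 (adjusted p = 4.64e-09, exact binomial test), Notch1 at 0.06 (0.0286), Dll4 at 0.30 (0.0486) and, lower in replicate 2, Dll3 at -0.13 (2.71e-04). With spike-in totals Dll3 passed in the other direction, at 0.10 (adjusted p = 0.00220, exact binomial test), so its direction depends on the correction. The ratio of Notch3 was -0.03 and that of Mfng -0.00 with the trend removed, and neither passed.

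**Figure D4:**
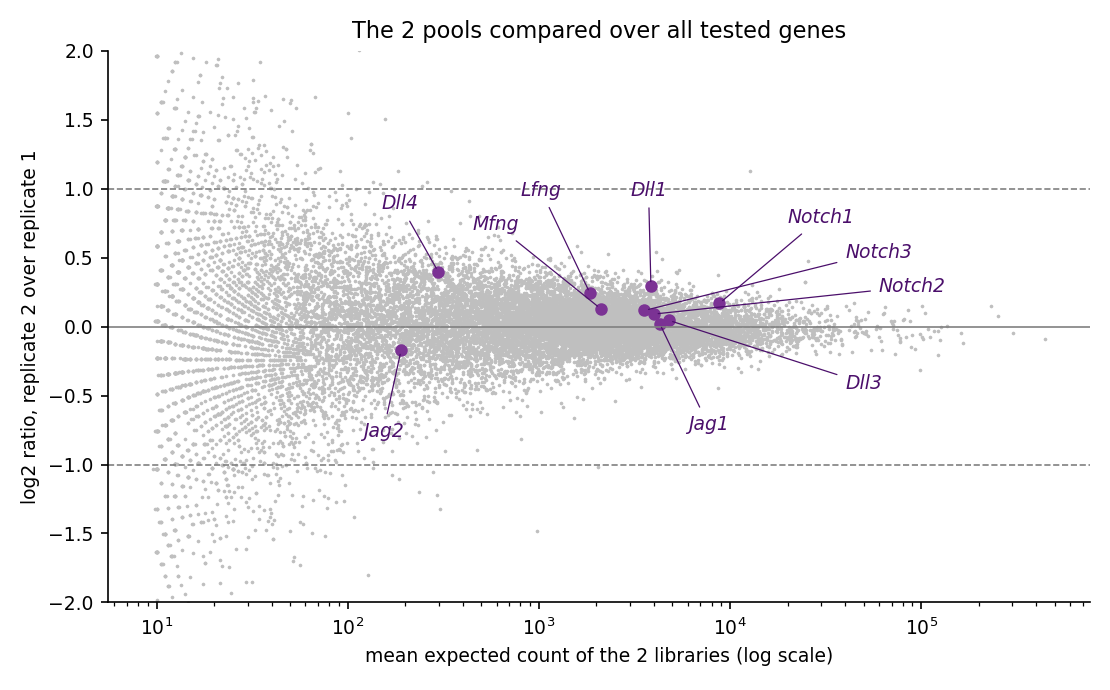
Log2 ratio of scaled counts, replicate 2 over replicate 1, against the mean expected count (log axis) for all 17148 tested genes in grey and the 10 Notch genes in colour; dashed lines mark a 2-fold difference and 114 genes lie outside the plotted range. The 10 genes run from -0.17 for Jag2 to 0.40 for Dll4, inside the dashed lines.

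Some of these counts may hold reads of overlapping genes, since the strand setting of the counting is not known. Antisense genes overlap Notch1 (Gm13568, 274 counts in replicate 2 and 218 in replicate 1, and 0610009E02Rik, 81.6 in replicate 2 and 98.5 in replicate 1) and Dll1 (A930024N18Rik, 45.5 in replicate 2 and 38.3 in replicate 1). Others overlap Dll4 (Gm14207, 32 counts in replicate 2 and 15 in replicate 1) and Notch3 (Gm17276, 18.4 in replicate 2 and 14.1 in replicate 1). Relative to the counts of the gene itself, those of Gm14207 beside Dll4 weighed most, although the counts of both were whole in each library. The counts of Notch1, Notch3 and Dll1 were fractional, so some of their reads were divided with other features. In each library the counts of Notch3 and Gm17276 added to a whole number, as did those of Dll1 and A930024N18Rik. Reads were thus divided between the overlapping genes of each of these pairs.

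The rest of the pathway was read from 65 genes in lists by role, of which 61 were detected. The median of these 61 was 22.5 TPM, beside 16.4 TPM over all detected genes. Of the 65, 2 passed the test with a 2-fold difference, against 2.94% of tested genes, and both had lower counts in replicate 2. Aph1c, a gamma-secretase subunit gene, had a log2 ratio of -1.02 on 44.8 counts in replicate 2 and 78.1 in replicate 1. Its counts are fractional and uncertain. With those of its close paralogue Aph1b they added to a whole number in each library, so reads were divided between these genes. The TPM of Aph1c ran the other way, with 1.20 TPM in replicate 2 and 1.06 TPM in replicate 1. Its effective length was 1165 bases in replicate 2 and 2741 bases in replicate 1, so the direction of Aph1c depends on the unit. Neurl1b, an E3 ligase gene of ligand endocytosis, had -1.27 on 27 counts in replicate 2 and 56 in replicate 1. With no minimum fold, 37 of the 65 passed, 23 higher and 14 lower in replicate 2, against 35.5% of tested genes, a share not matched for count.

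Among receptors and Fringe genes outside the 10, Notch4, known best from endothelium, was at 12.2 TPM in replicate 2 and 6.77 TPM in replicate 1, and its log2 ratio of counts was 0.36 (exact binomial test, adjusted p = 6.92e-04). Its TPM ratio of 1.80 exceeded its scaled count ratio of 1.28, as its mean effective length was 1517 bases in replicate 2 and 2142 bases in replicate 1. Notch4-210, a 619-base transcript not annotated as coding, held 69.5% of its level in replicate 2 and 70.9% in replicate 1, while the coding Notch4-201 held 17.2% in replicate 2 and 27.2% in replicate 1. By reads Notch4-201 led with 435 counts in replicate 2 and 319 in replicate 1.

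Non-canonical ligands, proteins that bind Notch without the full Delta or Jagged structure, were led by Mfap2 (193 ± 3.45 TPM), Dlk1 (58.6 ± 0.799 TPM) and Egfl7 (42.6 ± 3.41 TPM), and 6 of 8 were detected. Dlk2 and Mfap5 were below 1 TPM in both libraries, at means of 0.280 and 0.570 TPM. The genes of receptor maturation were all 3 detected, with the O-glucosyltransferase Poglut1 at 55.2 ± 3.75 TPM, Pofut1, which adds the O-fucose that Fringe enzymes extend, at 5.21 ± 0.488 TPM and the protease Furin at 2.12 ± 0.00707 TPM. Both sheddases were detected, Adam10 at 51.6 ± 3.37 TPM and Adam17 at 27.2 ± 1.24 TPM.

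The gamma-secretase genes were all 7 detected (median 18.9 TPM), and the highest were the subunits Ncstn (82.5 ± 0.622 TPM) and Psenen (80.4 ± 7.403 TPM). In ligand endocytosis 6 of 7 were detected, led by Dnm2 (41.8 ± 2.39 TPM), Epn1 (35.04 ± 4.09 TPM) and Mib1 (34.98 ± 1.80 TPM), the ubiquitin ligase that activates Delta ligands, with Neurl1b at 0.240 TPM. All 10 genes of receptor turnover and trafficking were detected, led by the ligase genes Nedd4 (644 ± 27.1 TPM), Dtx3 (103 ± 3.63 TPM) and Dtx4 (44.4 ± 1.56 TPM).

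In the nucleus, all 8 activator genes were detected, led by Snw1 (128 ± 0.481 TPM), Rbpj (48.7 ± 2.58 TPM), which carries Notch to its target genes, and Kat2a (38.9 ± 7.16 TPM). All 10 corepressor genes were detected, led by the deacetylase Hdac2 (333 ± 8.53 TPM), Ctbp1 (327 ± 21.1 TPM) and Hdac1 (176 ± 5.73 TPM). Of 8 target genes 7 were detected, and Hes5, a repressor of neuronal differentiation, was highest at 379 ± 45.05 TPM, followed by Nrarp at 46.6 ± 2.19 TPM and Hey1 at 44.5 ± 2.13 TPM. Hes7, known from the segmentation clock, was below 1 TPM in both libraries. The detected 10 Notch genes ran from 1.65 to 68.6 TPM, while the targets ran up to 379 TPM.

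**Figure D5:**
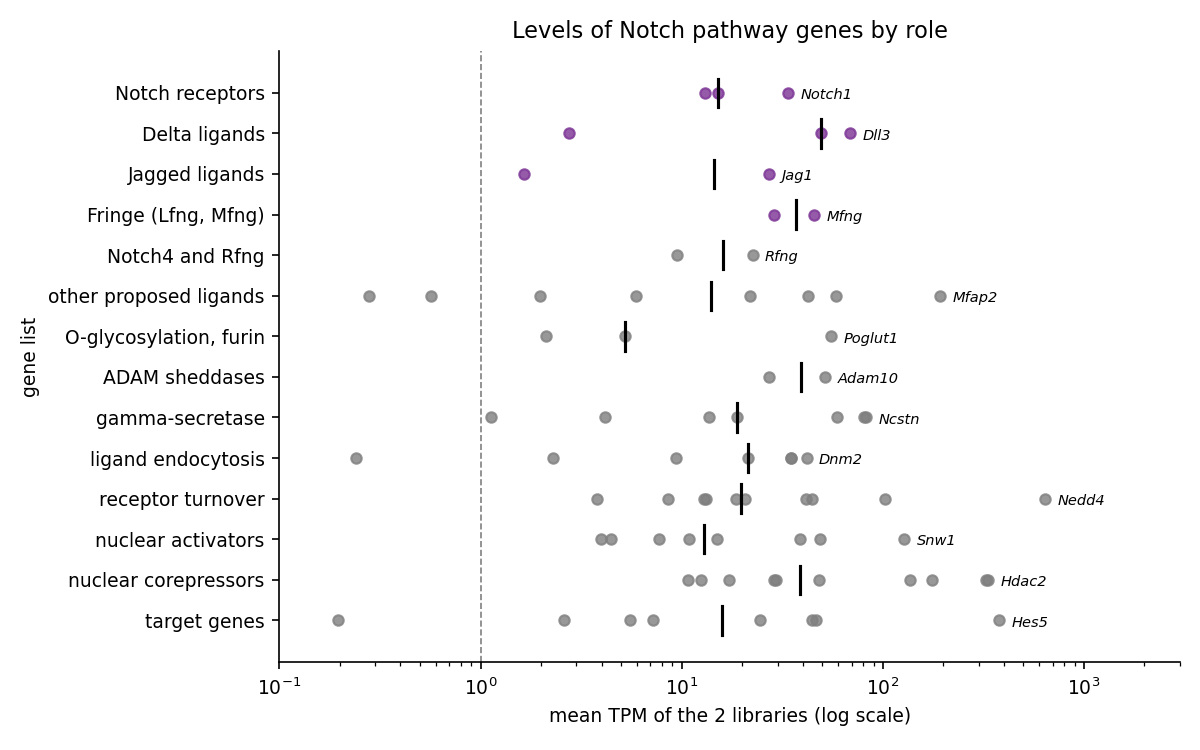
Mean TPM over both libraries of the 10 Notch genes and of the pathway genes by role on a log axis, 1 point per gene, with black bars at list medians and a dashed line at 1 TPM. The highest labelled gene is Nedd4 at 644 TPM, and the lowest list median is that of the O-glycosylation and furin genes at 5.21 TPM.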

How the data were processed

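Total RNA of 2 embryo pools was sequenced, 1 library each. The extraction kit was mirVana and the cited protocol Smart-seq, per the labels. The cDNA is amplified in such protocols, so all intervals cover only the error of counting and assigning reads. The p-values of the binomial test measure only the counting error of these libraries, and the edgeR exact test adds a spread that was assumed and not measured. The submitters' processing notes name assembly mm10 and annotation M4. Not given in the sources used here are the aligner, the quantifier and the strand setting.

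Per the file headers, the authors deposited an expected count, TPM (maximum likelihood, and posterior mean) and FPKM for each gene and transcript. The authors also deposited a lower and an upper bound for each TPM, of unstated confidence level. These bounds, unlike the deposited TPM itself, are a signal with no fixed sum. In the transcript tables the deposited percent is each transcript's share of its gene. TPM is scaled over all rows, and spike-ins took 14.8% of it in replicate 2 and 15.2% in replicate 1. Rows that name no gene, 96 of spike-ins, 1 of phiX and 26248 with a bare number for a name, entered neither gene totals nor tests. They held 6.66% of all 49256468 counts in replicate 2 and 6.89% of 41760197 in replicate 1. A count of 3, the limit that 0 counts allow, was 0.0653 CPM in replicate 2 and 0.0772 in replicate 1.

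Symbols and coordinates (1-based) came from GENCODE M21 on the same assembly, and 42462 genes matched. Promoter windows are from RefSeq and the intron from the GENCODE transcripts and coordinates. Pairs were compared on TPM + 0.1. Expected counts were rounded to whole numbers for tests. The pools were compared by a two-sided exact binomial test on library sizes scaled by TMM, wherever both counts summed to 20 or more, with log2 ratios at a prior count of 1 and Benjamini-Hochberg adjustment. A 2-library design leaves no residual degrees of freedom for a quasi-likelihood fit of this contrast. The common dispersion was fitted with edgeR 4.0.16 in R 4.3.3, and DESeq2 1.42.0 gave alternative size factors. Other steps used Python 3.11.15. The test was run on simulated data for replicate 2 against replicate 1 over 17147 genes, where it called 99% of 100 genes changed 3-fold and 100% of 100 changed 8-fold, with 4 false calls. The simulated counts held counting error only, with no spread between pools, and only genes of 100 or more summed counts were changed. The 4 false calls are thus no error rate for the real pools.

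The genes and lists were chosen with earlier results of these data known. All 10 Notch genes are named. Of each other list the 3 highest by mean TPM, any gene under 1 TPM in both libraries and any gene past the test between pools at 2-fold are named, except for 1 gene that is not reported here. Protein sequence features were not analysed here. Notch4 transcripts, the antisense genes and the short transcripts of Dll1, Notch1 and Mfng were singled out after their values were seen.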

Additional observations from a re-analysis of the deposited data

How the results depend on the processing

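No paired analysis was possible because the labels give 1 group, so no groups share replicate numbers. Leaving out a library is not possible for the comparison of the pools. For the other results, leaving out either library kept 14 separated pairs and 10 detected Notch genes. This was fixed in advance, since both calls already required each library to pass. Dropping the minimum fold moved the number of Notch genes called between the pools to 7, and none of the 10 was called at 2-fold with total counts, DESeq2 size factors, spike-in totals, no minimum count, an assumed spread or the GC and length trend removed. Among all genes, calls at 2-fold numbered 505, and 751 with no minimum count, 155 with the assumed spread and 447 with the trend removed. All 10 were detected at 0.5 TPM and 8 at 5 TPM, and 62 and 51 of the pathway genes. FPKM and TPM + 1 cannot alter the intervals that separate the pairs or turn the sign of a ratio, so they bear only on the size of the folds. Posterior mean TPM kept the direction of all 14 pairs, which was fixed in advance, since each posterior mean lies inside its separated interval. Taking TPM over genes alone moved 9 of the 10 levels by more than 1 SD, which here comes from 2 libraries, posterior mean TPM moved 2 and the leading transcript alone moved 4. By the same rule, posterior mean shares moved 3 of the 10 leading-transcript shares. At any fold, Dll3 passed between the pools as higher in replicate 2 with spike-in totals (log2 ratio 0.10) and as lower with the GC and length trend removed (-0.13). With 195 counts in replicate 2 and 185 in replicate 1 for Jag2, the lowest member, small ratios between the pools were not detectable at this depth.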
